A study of Mus musculus with 4 samples.

Results

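Fibroblast growth factor (FGF) ligands and their receptors were followed in C2C12 cells, a line of mouse myoblasts, the dividing precursors that fuse into myotubes when they differentiate. The members are Fgf1, Fgf2, Fgf7, Fgf10, Fgf21, Fgfr1, Fgfr2, Fgfr3, Fgfr4 and Fgfrl1. They were chosen by name, as every probe that was not a control and carried one of these gene names on the array, which gave 10 of 36413 gene names and 16 of 55681 probes, 6 for the 5 ligands and 10 for the 5 receptors. The cells had been transfected with an siRNA against Fxr1, which encodes the RNA-binding protein FXR1P (siFxr1), or with a random control siRNA of like GC content (siControl). In both conditions the cells were C2C12 cells that received an siRNA with Lipofectamine, and they were analysed 48 hrs after transfection. The siRNA that the study calls siFxr1 targets exon 14 of Fxr1. The labels do not give the exon. Each condition was measured on 2 one-colour Agilent arrays, 1 from each of 2 independent experiments, so there are 4 arrays in all. The 2 samples of an experiment lay on 1 slide, so that experiment and slide cannot be told apart.

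FGFs are secreted signals that bind receptor tyrosine kinases together with heparan sulfate chains of the cell surface, or, for the hormone-like members such as Fgf21, with a Klotho protein as co-receptor. Binding pairs the receptors and activates the kinases inside the cell, which signal through adaptor proteins and the RAS-ERK cascade, and this cascade induces its own inhibitors. In cultured myoblasts, FGF signalling is known to keep cells dividing and to hold back differentiation, and Fgfr1 and Fgfr4 are the receptors best known from muscle precursors. Fgfrl1 is a receptor-like protein that binds FGFs but has no kinase domain.

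The probes are 60 bases long, and 4 of them that lie in coding sequence show what the array reads from this family. The Fgfr1, Fgfr3 and Fgfr4 probes below all lie near the end of the kinase domain, where the receptors resemble each other, and the Fgf2 probe crosses an intron. Each is given 5′ to 3′ on the strand of the transcript. Capitals in the Fgfr1 and Fgfr4 lines mark bases that the 2 probes share when laid side by side without gaps, and capitals in the Fgfr3 line mark bases shared with the Fgfr1 probe. The Fgf2 line has no capitals because it was compared with no other probe.
Fgfr1 A_55_P1967022: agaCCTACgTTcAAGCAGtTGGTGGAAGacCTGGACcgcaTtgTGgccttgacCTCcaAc
Fgfr4 A_55_P2121871: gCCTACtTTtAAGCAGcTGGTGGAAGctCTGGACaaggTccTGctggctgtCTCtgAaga
Fgfr3 A_65_P06147: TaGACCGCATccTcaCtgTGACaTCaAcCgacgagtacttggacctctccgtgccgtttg
Fgf2 A_51_P399845: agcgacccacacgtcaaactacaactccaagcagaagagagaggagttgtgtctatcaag
The Fgfr1 and Fgfr4 probes shared 35 of 58 aligned bases, and the Fgfr3 and Fgfr1 probes shared 19 of 29. The sequences therefore differ at many positions along the probe. On mm9, the build of the array's annotation, these probes lie on the plus strand at chr8:26684061-26684120 (Fgfr1), chr13:55269212-55269271 (Fgfr4), chr5:34077856-34078090 (Fgfr3) and chr3:37247934-37295153 (Fgf2). The Fgfr3 and Fgf2 intervals, of 235 and 47220 bases, are longer than the probe because they contain introns. The annotation names no exon or UTR for any probe.

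Values are normalized log2 signals, the background-corrected brightness of a spot after the 4 arrays were given the same distribution. A probe was taken as measured on an array when the scanner software marked at least 0.5 of its spots as well above background. Each probe has its own response, so that the signals of different probes, even of the same gene, give no order of transcript levels. Of all probes, between 45.4% and 52.9% were well above background per array, and 0 spots were saturated. Both probes of Fxr1 were lower in siFxr1 in each experiment, with fitted log2 differences of -3.31 (SE 0.29) and -3.61 (SE 0.28), which checks the labels. Even so, neither was called changed by the fit described below (limma adjusted p = 0.950 for both). RNA integrity numbers were 9, except for an 8 in siFxr1 of experiment 1. Of 6 myoblast marker genes, 5 gave a measured signal on each of the 4 arrays, the exception being Myf5. Of the listed markers of other cell types, some were not well above background on both arrays of either condition. They were those of adipocytes (Adipoq, Plin1, Cidec, Lep), leukocytes (Ptprc, Cd68, Cd79a), epithelia (Epcam, Cdh1, Cldn4) and endothelia (Tek, Tie1). The others passed, which were 1 of 5 adipocyte (Fabp4) and 2 of 5 leukocyte markers (Cd3e, Itgam). So did 2 of 5 epithelial (Krt8, Krt18) and 3 of 5 endothelial markers (Pecam1, Cdh5, Kdr). Of these, Fabp4, Cd3e, Itgam, Cdh5 and Kdr were measured on all 4 arrays. The 2 epithelial markers that passed summed to linear signals of 271.9 and 112.3 in siFxr1 and 106.8 and 48.4 in siControl (experiments 1 and 2), and the adipocyte marker Fabp4 to 329 and 1119 against 244 and 352. In the same order, the 2 leukocyte markers summed to 5721 and 13225 against 4040 and 15071. The 3 endothelial markers summed to 4412 and 3721 against 3157 and 3450. Their part in the differences given below was not tested.

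Of the 16 FGF probes, 9 gave a measured signal on all 4 arrays and 3 on none. The 3 were one of the probes of Fgf1 and those of Fgf2 and Fgf10. In all, 10 of the 16 had a measured signal on both siFxr1 arrays, on both siControl arrays or on all 4, and these are said to have passed the filter on low values. Among the ligands, the probes of Fgf7 and Fgf21 passed, that of Fgf21 only through its siControl arrays. All 5 receptors had at least 1 probe that passed.

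**Figure D1:**
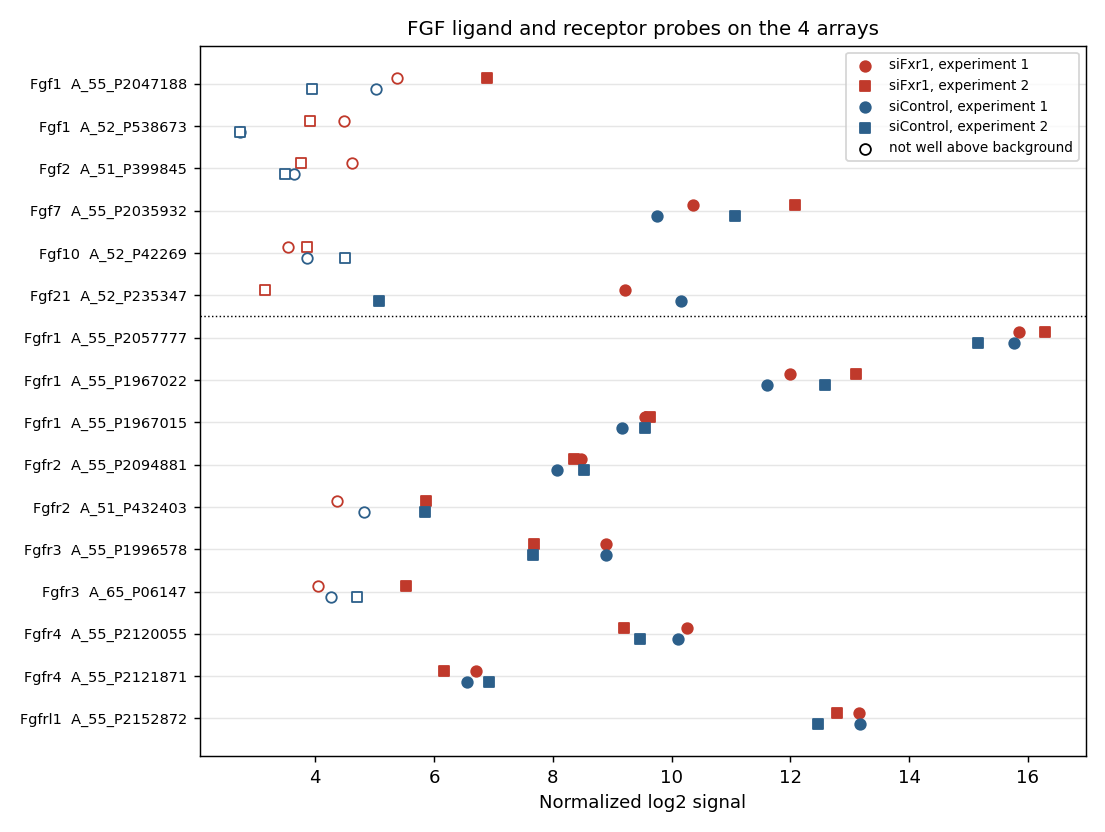
Normalized log2 signal (x axis) of each of the 16 FGF probes (rows, ligands above the dotted line) on the 4 arrays, with colour for the condition, shape for the experiment and open symbols where the probe was not well above background. Fgf21 spans from 3.15 to 10.16, with both arrays of experiment 1 above both of experiment 2, whereas for the Fgfr3 probe A_55_P1996578 the conditions coincide within each experiment.

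The first question was whether FGF ligand or receptor transcripts differed between siFxr1 and siControl myoblasts. A probe was called changed when the B value of a linear model across all probes (limma), the log odds that it differs, was above 0. With the condition as the only term, 0 of the 16 FGF probes were called, beside 0% of the 55681 probes tested. The probes of Fxr1, the targeted gene, were not called either (limma adjusted p = 0.950). On simulated data that kept the measured difference between experiments, this fit recovered 0 of 200 probes changed by 3 on the log2 scale. The absence of calls therefore cannot show that a transcript did not differ. At an unadjusted p under 0.05, limma gave 1 of the 16 FGF probes, one of Fgf1, and 2764 of all probes. The lowest Benjamini-Hochberg adjusted p of an FGF probe was 0.950, which was also the lowest over all probes. The number of arrays limits the precision. A two-sided exact permutation test of a single probe, 2 arrays against 2, cannot go below p = 0.333 and was not used for calls. The samples of an experiment deviated together, so the difference within each experiment is given beside each fitted value.

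Fgf7, a ligand known for its action on epithelial cells through a splice form of Fgfr2, was the ligand measured on all 4 arrays. Its probe (A_55_P2035932, NM_008008, chr2:125916134-125916193, plus strand) had log2 signals of 10.36 (siFxr1) and 9.75 (siControl) in experiment 1 and of 12.08 (siFxr1) and 11.08 (siControl) in experiment 2. Within each experiment the siFxr1 array was the higher, by 0.62 and 1.00 on the log2 scale, but the conditions overlapped, since siControl of experiment 2 exceeded siFxr1 of experiment 1. The siFxr1 mean was 11.22 ± 1.21 (SD, n = 2), and the siControl mean was 10.41 ± 0.94 (SD, n = 2). The fitted difference of 0.81 (SE 0.86, limma adjusted p = 0.975) was smaller than the SD between replicates. With the experiment as a block, the SE fell to 0.22 and the adjusted p was 0.542 (limma). Without siFxr1 of experiment 2 the fitted difference was -0.047.

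Fgf21, a hormone-like ligand that skeletal muscle can release under stress, was the FGF probe with the widest range. Its probe (A_52_P235347, NM_020013, chr7:52869305-52869364, minus strand) had log2 signals of 9.21 (siFxr1) and 10.16 (siControl) in experiment 1 and of 3.15 (siFxr1) and 5.08 (siControl) in experiment 2. The 3.15 was not well above background and the other 3 values were. In both experiments the siFxr1 array was the lower, by 1.94-fold in experiment 1 and at least 1.85-fold in experiment 2, where the dim value was replaced by the lowest signal that was well above background on its array. The fitted log2 difference was -1.44 (SE 3.103, limma adjusted p = 0.977). With the experiment as a block, the SE fell to 0.34 and the adjusted p was 0.535 (limma). The size of the difference rests on the background correction. The fitted log2 difference was -0.66 without it and in the deposited table, -0.73 with normexp and -0.90 with the median minus background. The direction turned without siFxr1 of experiment 2 (1.59) and without siControl of experiment 1 (1.10), which each leave a condition with an array of 1 experiment only. Klb, the co-receptor that Fgf21 needs, was not well above background on both arrays of either condition.

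Fgf1, which binds all FGF receptors, has 2 probes on chromosome 18, both on the minus strand (NM_010197). The probe at 38998337 to 38998396 (A_55_P2047188) had log2 signals of 5.38 and 6.89 in siFxr1 and of 5.02 and 3.95 in siControl, in the order experiment 1, experiment 2. Only the 6.89 was well above background. With only 1 of the 4 arrays measured, no fold is given. The fit gave an adjusted p of 0.975 (limma). The probe at 39018274 to 39018333 (A_52_P538673) had 4.49 and 3.91 in siFxr1 and 2.73 and 2.73 in siControl. None of these was well above background, so it has no fold either. It is the FGF probe with an unadjusted p under 0.05 (0.0096, limma adjusted p = 0.950), and both of its siFxr1 values lay above both siControl values.

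Fgf2, the ligand commonly added to myoblast cultures, and Fgf10, a ligand known from branching organs, were not measured here. The Fgf2 probe, whose sequence is given above (NM_008006), had 4.61 and 3.76 in siFxr1 and 3.64 and 3.49 in siControl. The Fgf10 probe (A_52_P42269, NM_008002, chr13:119580365-119580424, plus strand) had 3.54 and 3.86 in siFxr1 and 3.86 and 4.50 in siControl. Each of these 2 probes is printed as 10 spots, and at most 2 of the 10 were well above background on any array.

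Fgfr1, one of the main FGF receptors of muscle precursors, was measured on all 4 arrays by 3 probes (NM_010206, chromosome 8, plus strand). The probe at 26685072 to 26685131 (A_55_P2057777) had log2 signals of 15.85 and 16.29 in siFxr1 and of 15.77 and 15.16 in siControl. Both siFxr1 values were above both siControl values, but the difference was 0.08 in experiment 1 and 1.13 in experiment 2. The means were 16.07 ± 0.31 (SD, n = 2) and 15.46 ± 0.43 (SD, n = 2), with a fitted difference of 0.61 (SE 0.33, limma adjusted p = 0.975).
The coding probe shown above (A_55_P1967022) had 11.99 and 13.10 in siFxr1 and 11.61 and 12.58 in siControl, differences of 0.38 and 0.52. Its conditions overlapped. The probe at 26685820 to 26685879 (A_55_P1967015) had 9.54 and 9.64 in siFxr1 and 9.16 and 9.55 in siControl, differences of 0.38 and 0.10. All 3 Fgfr1 probes were thus higher in siFxr1 in each experiment, while the size in experiment 2 ranged from 0.10 to 1.13 between probes of the same gene.

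Fgfr2, a receptor with splice forms of different ligand range, has 2 probes (NM_010207, chromosome 7, minus strand) that share 42 of their 60 bases, so they are not independent. The probe at 137307473 to 137307532 (A_55_P2094881) had log2 signals of 8.47 and 8.35 in siFxr1 and of 8.07 and 8.52 in siControl, so the differences of 0.41 and -0.17 ran opposite ways. The probe at 137307455 to 137307514 (A_51_P432403), printed as 10 spots, had 4.37 and 5.86 in siFxr1 and 4.83 and 5.85 in siControl. It was well above background in experiment 2 only, where the conditions differed by 0.01.

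Fgfr3, a receptor best known from growing bone, has 2 probes (NM_008010, chromosome 5, plus strand). The probe at 34079649 to 34079708 (A_55_P1996578) had log2 signals of 8.90 and 7.68 in siFxr1 and of 8.90 and 7.66 in siControl. The difference between conditions was within 0.02 in each experiment, and the fit gave 0.01 (SE 0.70 without the block and 0.19 with it). The coding probe shown above (A_65_P06147) had 4.05 and 5.52 in siFxr1 and 4.27 and 4.70 in siControl, and only the 5.52 was well above background, so no fold is given (limma adjusted p = 0.976). Its siFxr1 array was the lower in experiment 1 and the higher in experiment 2.

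Fgfr4, a receptor known from differentiating and regenerating muscle, was measured on all 4 arrays by 2 probes (NM_008011, chromosome 13, plus strand). The probe at 55270033 to 55270092 (A_55_P2120055) had log2 signals of 10.26 and 9.19 in siFxr1 and of 10.12 and 9.48 in siControl. The coding probe shown above (A_55_P2121871) had 6.70 and 6.17 in siFxr1 and 6.56 and 6.92 in siControl. Both were 0.14 higher in siFxr1 of experiment 1 and lower in experiment 2, by 0.28 and 0.75. Fgfrl1 (A_55_P2152872, NM_054071, chr5:109135855-109135914, plus strand) had 13.15 and 12.79 in siFxr1 and 13.18 and 12.46 in siControl, a fitted difference of 0.15 (SE 0.35, limma adjusted p = 0.980).

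Over the 10 FGF probes that passed, 5 were higher in siFxr1 in both experiments, 1 was lower in both and 4 ran opposite ways. The 1 that was lower, of Fgf21, passed the filter only through its siControl arrays, where it was higher. Among the 25540 probes that passed on the array, 33.2% were higher and 31% lower in both. In 1 of the 10, of Fgfr1, both siFxr1 arrays lay above both siControl arrays, and in 0 below, beside 16% and 14.8% of all. None of the 10 differed at least 2-fold the same way in both experiments, beside 1.94% of all probes higher and 1.71% lower. The median log2 difference was 0.14 over the 10 and 0.02 over all that passed, and the median absolute difference was 0.27 and 0.29.

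**Figure D2:**
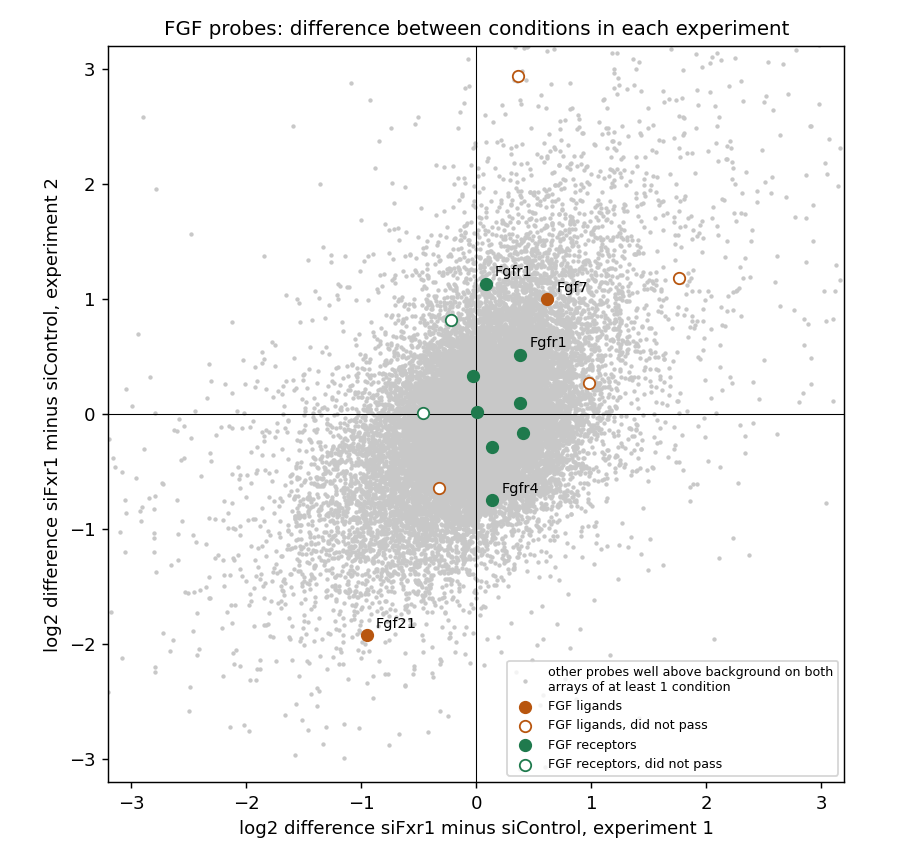
Log2 difference siFxr1 minus siControl in experiment 1 (x axis) and experiment 2 (y axis) for the FGF probes, ligands and receptors in 2 colours and open where they did not pass the filter, over all 25540 probes that passed, in grey. Axes end at 3.2, which leaves out 149 grey probes. Fgf7 (0.62 and 1.00) and Fgf21 (-0.95 and -1.92) differ the same way in both experiments, and the Fgfr3 probe lies at the centre. The -1.92 is set against a dim siFxr1 value and stands for a difference of at least 1.85-fold on the background-corrected signal.

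The second question was how the FGF transcripts differed between the 2 experiments, each compared over both conditions with condition and experiment as terms. The probe of Fgf21 was called, and higher in experiment 1. Higher calls made up 0.341% of all probes and lower calls 0.851%. Of the FGF probes, 1 of 16 was called higher and 0 lower. Over the 10 that passed, the median absolute difference between experiments was 0.70 on the log2 scale, beside 0.45 over all that passed, and in 8 of the 10 the difference between experiments was larger than that between conditions, as in 63.1% of all.

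Fgf21 was higher in experiment 1 by a fitted 5.57 on the log2 scale (SE 0.34, B = 1.06, limma adjusted p = 0.108), which misses an adjusted p of 0.05. In siControl, where both arrays were well above background, this was 33.9-fold. In siFxr1 it was at least 32.4-fold, since the array of experiment 2 was dim. Without the background correction, the fitted difference was 3.03 on the log2 scale and the probe was still called. With the experiment as the only term it was not called.

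One probe each of Fgfr3, Fgfr4 and Fgfrl1 was also higher in experiment 1 in both conditions, without being called. The Fgfr3 probe A_55_P1996578 differed by 1.23 (SE 0.19, limma adjusted p = 0.126) and the Fgfr4 probe A_55_P2120055 by 0.85 (SE 0.23, limma adjusted p = 0.201). The Fgfrl1 probe differed by 0.54 (SE 0.22, limma adjusted p = 0.323). In each, both arrays of experiment 1 exceeded both of experiment 2. The other probes of Fgfr3 and Fgfr4 did not show the same difference. The coding probe of Fgfr4 differed by 0.08. The coding probe of Fgfr3 was the higher in experiment 2 in both conditions, at 5.52 and 4.70 against 4.05 and 4.27, but only the 5.52 was well above background. Without background correction, the probe A_55_P1996578 of Fgfr3 was called, with a difference of 0.95 (limma adjusted p = 0.0168).
Fgf7 and the coding probe of Fgfr1 were lower in experiment 1. Fgf7 differed by -1.52 (SE 0.22, limma adjusted p = 0.120), and by -1.71 within siFxr1 and -1.33 within siControl. It was called under the 3 other treatments of the background and in the deposited table, with limma adjusted p from 0.0075 to 0.0141. The coding Fgfr1 probe differed by -1.05 (SE 0.20, limma adjusted p = 0.144), whereas the other Fgfr1 probes differed by 0.09 and -0.24. It was called with normexp, without background correction and in the deposited table, with limma adjusted p from 0.0125 to 0.0213. The Fgfr2 probe A_51_P432403, well above background in experiment 2 only, was at least 1.70-fold higher there on the background-corrected signal. Over the alternative settings its fitted difference between experiments ranged from -1.73 to -0.36 on the log2 scale.

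**Figure D3:**
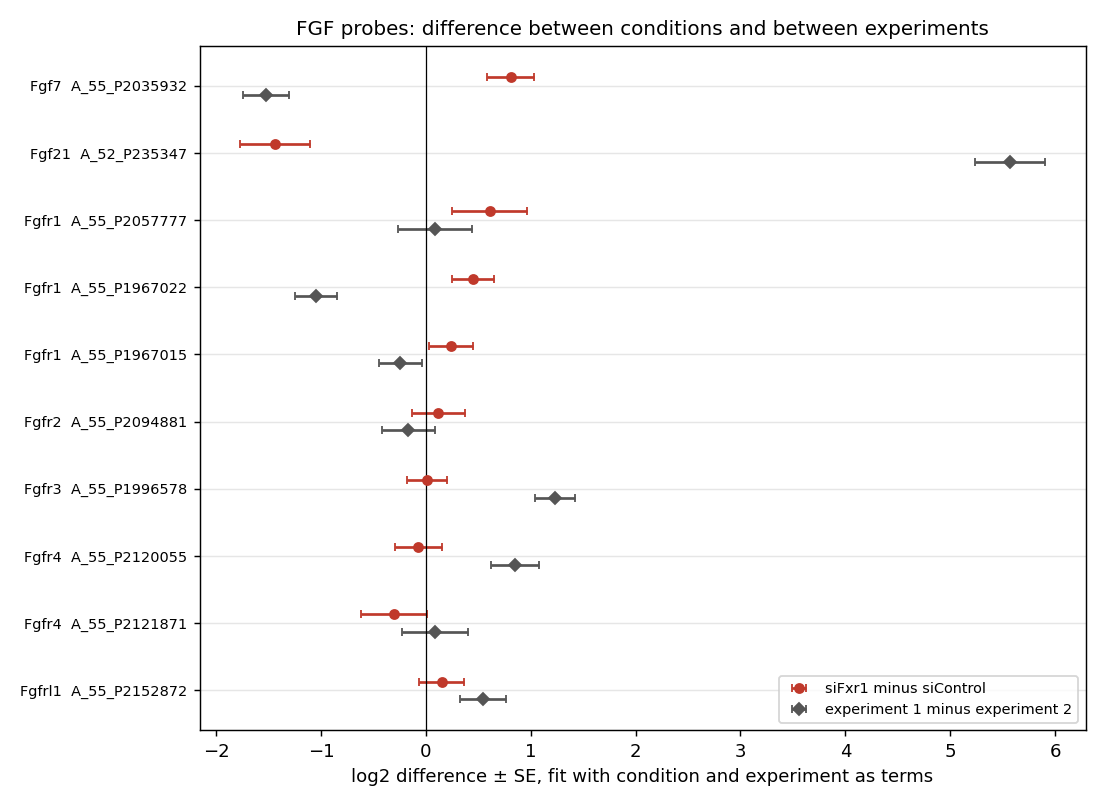
Log2 difference (x axis) between conditions (circles, siFxr1 minus siControl) and between experiments (diamonds, experiment 1 minus experiment 2) for the 10 FGF probes that passed, with bars for the SE of the fit with both terms. The diamond of Fgf21, at 5.57 with 1 of its 4 arrays dim, lies farthest from 0, and the diamonds of Fgf7 and of the coding Fgfr1 probe lie on the negative side.

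Genes of differentiating muscle cells moved with the experiments. All 8 genes of that marker list passed, and all 8 were higher in experiment 1 in both conditions, beside 41.7% of the 12906 genes that passed, each read by its brightest probe. Of the 8, 2 were called higher in experiment 1, namely Myog, a transcription factor that starts terminal differentiation, and Mylpf, a myosin light chain, beside 0.473% of genes called higher and 0.147% called lower. The median difference of the 8 was 2.08 on the log2 scale, and the summed linear signal was 353631 and 404631 in experiment 1 (siFxr1, siControl) and 142324 and 135975 in experiment 2. Between conditions the list's median difference was -0.10. The part of this in the differences of Fgf21, Fgfr3, Fgfr4, Fgfrl1 and Fgf7 between experiments was not tested. In a bulk sample, more cells of a kind and more RNA per cell cannot be told apart.

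The third comparison was of the other genes of the pathway between siFxr1 and siControl, in 7 lists by role, each gene read by its brightest probe. In the fit with the condition as the only term, 0 genes of these lists were called. Over the 12906 genes, 34.8% were higher in siFxr1 in both experiments, 32.5% were lower in both, 17.4% had both siFxr1 arrays above both siControl arrays, and the median log2 difference was 0.02. At least 2-fold differences in both experiments were found in 2.29% of genes in the higher direction and 1.56% in the lower.

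The feedback inhibitors, which ERK signalling induces and which then damp it, held 3 of the 5 genes of these lists that were at least 2-fold higher in both experiments. Of 11 on the array 9 passed, of which 5 were higher in both experiments and 2 lower, 5 had both siFxr1 arrays above both siControl arrays, and the median difference was 0.50. The 3 are Dusp6, Spry1 and Spry4, the last against siControl arrays on which it was dim. The others of the 5 are Sdc1 and Fgfbp1. Both Spry4 and Fgfbp1 passed the filter only through their siFxr1 arrays, where they were higher.
Dusp6, a phosphatase that acts on ERK, had log2 signals of 14.91 and 15.50 in siFxr1 and of 13.10 and 13.06 in siControl, a fitted difference of 2.13 (SE 0.27, limma adjusted p = 0.950). With the experiment as a block and dim probes filtered out, it was called (B = 1.38, limma adjusted p = 0.0381). Spry1, a Sprouty protein that restrains receptor tyrosine kinase signalling, had 10.81 and 10.30 in siFxr1 and 9.44 and 7.45 in siControl, with differences of 1.37 and 2.86 in the experiments. Spry4, of the same family, had 6.63 and 6.004 in siFxr1 and 4.43 and 3.15 in siControl, where neither array was well above background, so on the background-corrected signal siFxr1 was at least 3.37-fold higher (limma adjusted p = 0.967). That bound rests on the background correction, since the fitted log2 difference of Spry4 was 0.73 without it, 0.74 in the deposited table, 0.91 with normexp and 1.63 with the median minus background. Spry4 too was called with the block and the filter (B = 2.26, limma adjusted p = 0.0304), but it passed that filter only through its siFxr1 arrays, where it was higher. With the block alone neither Spry4 (B = -2.47) nor Dusp6 (B = -2.55) was called (limma adjusted p = 0.535 for both). In all 3 genes the lowest siFxr1 value was above the highest siControl value. Spry2 was not higher in siFxr1 in either experiment, and Spry3 did not pass.

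Of the transcription factors and other genes that FGF signalling induces, all 10 passed, 7 were higher in siFxr1 in both experiments and 0 lower, 5 had both siFxr1 arrays above both siControl arrays, and the median difference was 0.61. None reached 2-fold in both. Egr1, Ier2 and Ccnd1 ran opposite ways, by 0.47 in experiment 1 and -0.09 in experiment 2 (Egr1), 0.92 and -0.32 (Ier2) and -0.44 and 1.09 (Ccnd1). The ETV factors, named here after their values were seen, differed in experiment 1 and experiment 2 by 0.50 and 1.54 (Etv1), 0.51 and 1.41 (Etv4) and 0.22 and 1.46 (Etv5).
Of 18 co-receptors and binding proteins 13 passed, 5 were higher in both experiments and 2 lower, and the median difference was 0.09. In 4 of the 13 both siFxr1 arrays lay above both siControl arrays, and in 2 below. Sdc1, a heparan sulfate proteoglycan of the cell surface, had log2 signals of 14.05 and 14.32 in siFxr1 and of 12.72 and 13.01 in siControl, which is 1.33 and 1.30 higher in the experiments (fitted SE 0.21, limma adjusted p = 0.950). Fgfbp1, a secreted carrier of FGFs, had 5.94 and 6.27 in siFxr1 and 4.92 and 3.92 in siControl, the latter not well above background, so on the background-corrected signal siFxr1 was at least 2.50-fold higher (limma adjusted p = 0.967). Fgfbp1 passed the filter only through its siFxr1 arrays. Its fitted log2 difference was 0.39 without background correction, 0.40 in the deposited table, 0.53 with normexp and 0.76 with the median minus background.

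The remaining lists held no gene that differed at least 2-fold the same way in both experiments. All 11 enzymes that build or trim heparan sulfate passed, with 5 higher in both experiments, 2 lower and a median of 0.26. In 5 of the 11 both siFxr1 arrays lay above both siControl arrays, and in 2 below. Of 21 receptor adaptors and kinases, such as Frs2, Grb2 and the RAS, RAF, MEK and ERK genes, 19 passed, with 6 higher, 5 lower and a median of 0.01. Of 13 other secreted ligands 6 passed (Fgf6, Fgf8, Fgf9, Fgf18, Fgf22 and Fgf23), with 2 higher, 0 lower and a median of 0.29. Both siFxr1 arrays lay above both siControl arrays in 3 of the adaptors and kinases and in 1 of these ligands, and below in 0 of either. Of 4 intracellular FGF homologous factors only Fgf11 passed, and it ran opposite ways in the 2 experiments.

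**Figure D4:**
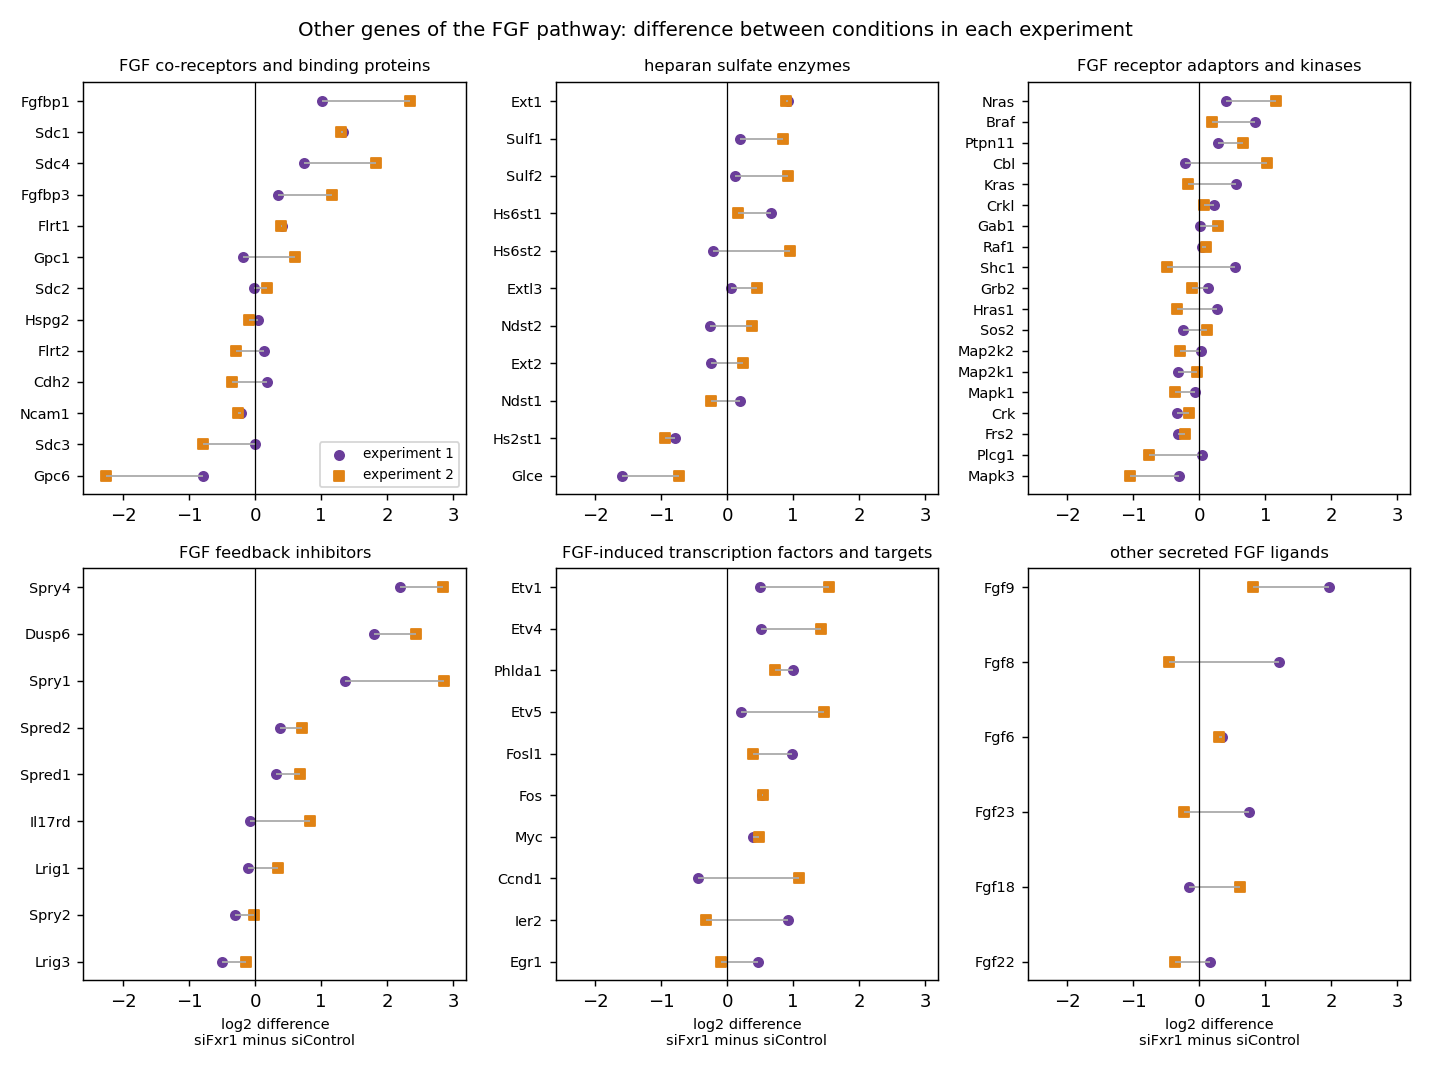
Log2 difference siFxr1 minus siControl (x axis) in experiment 1 (circles) and experiment 2 (squares) for the genes of 6 pathway lists that passed, ordered within each list by their fitted difference. Dusp6, Spry1 and Spry4 lie above 1 in both experiments, Spry4 against dim siControl values, and the receptor adaptors and kinases lie on both sides of 0.

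The genes most like Fgf7 and the brightest receptor probe were sought among 15946 probes well above background on all 4 arrays, by the root mean square difference between log2 profiles centred over the 4 arrays. For Fgf7 the 5 nearest were Gm10845 (0.052), Spag1 (0.087), Irf5 (0.099), Svep1 (0.108) and C330019L16Rik (0.110). For the Fgfr1 probe A_55_P2057777 they were Six4 (0.041), Zfand2a (0.042), Ctsl (0.055), 1110020G09Rik (0.059) and Fxyd2 (0.063). With 4 arrays, these lists describe likeness in these arrays only.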

How the data were processed

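RNA of C2C12 cells from 2 conditions and 2 experiments was labelled with Cy3 and hybridised to 4 one-colour arrays. The intensity of each spot was deposited by the authors as Agilent Feature Extraction 10.7.3.1 gave it, background-corrected within the array and not normalized between arrays. The authors also deposited a table of normalized intensity values with medians of 119.25 to 119.625, which ranks spots as the raw median intensity does (Spearman 1 on each array). It was used as an alternative.

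The corrected intensity was put on the log2 scale in R 4.3.3 and quantile-normalized over 59305 spots that were not controls with limma 3.58.1. Outlier spots (145 to 177 per array) were then set to missing, and each probe took the mean of its spots. A linear model was fitted with lmFit and eBayes (expected share of changed probes 0.01). The condition was its only term, because the study's methods select probes by a B value above 0 after quantile normalization in limma and name no block. The methods also speak of mean ratios and leave it unclear which ratios the B values come from, so the 4 ratios of siFxr1 over siControl arrays were run as an alternative, which called 1107 probes where the model used here called 0. The study itself reports significantly changed transcripts, Dusp6 among those raised, so the model used here does not reproduce its selection. By quantitative RT-PCR the study also found Dusp6 raised, with siFxr1 and with another siRNA against Fxr1. The experiments were compared with condition and experiment as terms. P-values were adjusted by Benjamini-Hochberg over all probes. They measure the spread between these samples only.

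The experiment numbers come from the labels and mark a shared slide, so they pair the samples. Their deviations from the mean of each condition correlated at 0.714 within the pairs. On simulated data with 200 of 55681 probes changed by 3 on the log2 scale, the fit without a block recovered 0 when the measured difference between experiments was kept and 200 when only 200 probes differed between experiments. The fit with a block recovered 200 in both, with 8 false calls in the former and 10 in the latter. Every simulated probe had the same SD of 0.19, the median residual SD of the fit with a block. On the measured arrays that fit called 0 of 55681 probes, so its recovery in the simulation does not carry over to these data.

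For a probe that was dim on both arrays of a group, a bound was computed. The brighter group's mean was set against, per array, the higher of the dim probe's own signal and the lowest signal among probes well above background. Named were all members with every probe, Fxr1, of each pathway list up to 6 genes that differed at least 2-fold the same way in both experiments, and the 5 genes nearest to 2 members. Members, lists and tests were chosen with earlier results of these data known. Alternatives were another scaling, 3 other treatments of the background (normexp with an offset of 50, none, or subtraction of the local median), the deposited table, a filter on dim probes, the block, an intensity trend in the variance prior, the 4 ratios between arrays as observations, and each array left out in turn.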

Additional observations from a re-analysis of the deposited data

How the results depend on the processing

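Between siFxr1 and siControl, 0 probes, 0 FGF probes and 0 pathway genes were called in limma, and the same counts, 0, were given with the replicate block, which keeps the pairing by experiment, with the other scaling, with each treatment of the background, with the deposited table, with the filter and with a trend. Leaving out each array in turn gave counts from 0 to 0, which says nothing about stability, since the fit made 0 calls with all arrays. The block together with the filter called 354 probes, with 0 FGF probes and 2 pathway genes (Dusp6 and Spry4). Spry4 passed that filter only through its siFxr1 arrays. The 4 ratios as observations, which share arrays, called 1107 probes, 1 FGF probe (Fgf1 A_52_P538673, not well above background on any array) and 3 pathway genes (Dusp6, Sdc1 and Ext1). Between experiments, the count of probes called was 664, and it was 3202 with scaling to the 75th percentile, which moved the median difference over all probes from 0.02 to 0.23, 1929 with normexp, 2127 without background correction, 1717 with the median minus background, 2240 with the deposited table and 1284 with the filter. The count of FGF probes called between experiments was 1, and it was 3 with normexp, 4 without background correction, 2 with the median minus background, 4 with the deposited table, 2 with a trend and 0 with the experiment as the only term. Fgf21 was among them under each of these settings except the last, Fgf7 under the first 5, Fgfr1 A_55_P1967022 with normexp, without background correction and with the deposited table, and Fgfr3 A_55_P1996578 under the latter pair. Leaving out an array gave no residual degrees of freedom for this comparison, so it was not run there.

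Differences between conditions that changed sign when 1 array was left out, which leaves the experiments unbalanced, ranged from -0.047 to 1.67 for Fgf7, from -4.47 to 1.59 for Fgf21, from -0.11 to 1.01 for Fgfr1 A_55_P1967022, from -0.11 to 0.35 for Fgfr2 A_55_P2094881, from -0.97 to 0.52 for Fgfr2 A_51_P432403, from -0.61 to 0.63 for Fgfr3 A_55_P1996578, from -0.44 to 1.04 for Fgfr3 A_65_P06147, from -0.60 to 0.46 for Fgfr4 A_55_P2120055 and from -0.21 to 0.51 for Fgfrl1. Fgfr3 A_55_P1996578 was at -0.024 without background correction, -0.023 with the deposited table and -0.0095 with the median minus background, and Fgfr3 A_65_P06147 at -0.0532, -0.0532 and -0.016. Between experiments, Fgf1 A_52_P538673 turned from 0.29 to -0.17 with normexp, -0.014 without background correction, -0.49 with the median minus background and -0.013 with the deposited table, and Fgfr4 A_55_P2121871 from 0.08 to -0.28 with the 75th percentile. The cause was not tested. For the FGF probes not well above background, the signal over background limits what can be compared.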
